A study of Mus musculus with 6 samples.

Results

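Claudins, occludin and the scaffold protein ZO-1, the components of epithelial tight junctions, were followed at the RNA level in intestinal tumors of 2 sites in the mouse. The genes were Cldn1, Cldn2, Cldn3, Cldn4, Cldn7, Cldn8, Cldn15, Cldn23, Ocln and Tjp1, and their members on the array were all probe sets that the platform annotation assigns to exactly 1 of these 10 genes. They came to 17 probe sets of 22690 on the array, or 10 of 12393 named genes. Cldn3, Cldn4 and Cldn15 lie on chromosome 5, Cldn1 and Cldn8 on chromosome 16, Cldn2 on chromosome X, Tjp1 on chromosome 7, Cldn23 on chromosome 8, Cldn7 on chromosome 11 and Ocln on chromosome 13. The groups were 3 duodenal tumors and 3 cecal tumors, each on its own Affymetrix expression array. Their titles number them as biological replicates within each site and name no mouse. All the mice carried Apc1638N, a mutant allele of the Apc tumor suppressor that predisposes to intestinal tumors. All were also Rb1-deficient, Rb1 being the tumor suppressor first known from retinoblastoma. How Rb1 was removed, and the age and sex of the mice, are not given in the labels. Per the labels' protocols, the duodenal samples could include tumor tissue from the pylorus, where the stomach empties into the gut. Normal gut and Rb1-proficient tumors were not analysed here, so each value below compares tumors of 2 places that also differ as normal tissues.

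Tight junctions close the space between neighbouring epithelial cells, and the claudins, small multi-pass membrane proteins, form their strands. Some claudins form charge-selective channels through the junction, such as Cldn2 and Cldn15, which carry sodium between the cells of the small intestine. Others, among them Cldn1, Cldn3, Cldn4 and Cldn8, are mostly described as tightening the barrier. Ocln encodes occludin, another membrane protein of the strands, and Tjp1 encodes ZO-1, which ties the strands to actin.

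The deposited values were linear intensities, and the arrays' medians ranged from 164.6 to 181.8. A probe set was called dim on an array when it lay at or below that array's 40th percentile (92.4 to 100.6), and it was tested when it lay above on at least 3 of the 6 arrays, as 13866 probe sets did. Differences are duodenal minus cecal on the log2(intensity + 16) scale, with the standard error (SE) and the two-sided p of limma, adjusted over all 13866 tested probe sets by the Benjamini-Hochberg method. A probe set passed below an adjusted p of 0.05. Rb1 was measured by 1 probe set, at 306.7 to 358.9 in duodenal and 337.8 to 387.5 in cecal tumors, and it checks no label, because it is not known whether its probes lie in the altered part of the gene.

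Of the 10 genes, 3 passed the test, the claudins Cldn3, Cldn7 and Cldn23, all lower in duodenal tumors. Ocln and Tjp1 had log2 differences near 0 and did not pass. Cldn4 was about 1.95-fold lower and Cldn2 1.67-fold and 2.14-fold higher by its 2 probe sets, but neither gene passed the test. Cldn1 was dim on all 6 arrays and Cldn8 on all but that of duodenal tumor 2, and neither gene was tested. Of the 17 probe sets 12 were tested, covering 8 of the 10 genes, and every one of the 12 was above the percentile on all 6 arrays. Of these, 6 passed, all lower in duodenal tumors, against 9.3% of all tested probe sets that passed in either direction and 5.24% that passed as lower. As 4 of the 6 measure Cldn3, they stand for 3 of the 8 tested genes, against 5.7% of all genes that passed as lower by their brightest probe set and 4.73% that passed as higher. No member passed as higher, against 4.07% of all tested probe sets, and the 2 Cldn2 probe sets alone were higher at an unadjusted p below 0.05. The intensities of the sites did not overlap for 8 of the 12, against 29.5% of all tested probe sets, and by the brightest probe set for 4 of 8 genes, against 31.2% of all genes. The median log2 difference of the 12, in which Cldn3 counts 4 times, was -0.73, beside 0.04 over all tested probe sets. By the brightest probe set of each of the 8 genes it was -0.34, beside 0.05 over all genes. With the replicate number as a block, 7 passed as lower and 2 as higher, against 11.3% of all probe sets. In bulk tumor RNA, fewer cells of a type and less RNA per cell cannot be told apart.

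**Figure D1:**
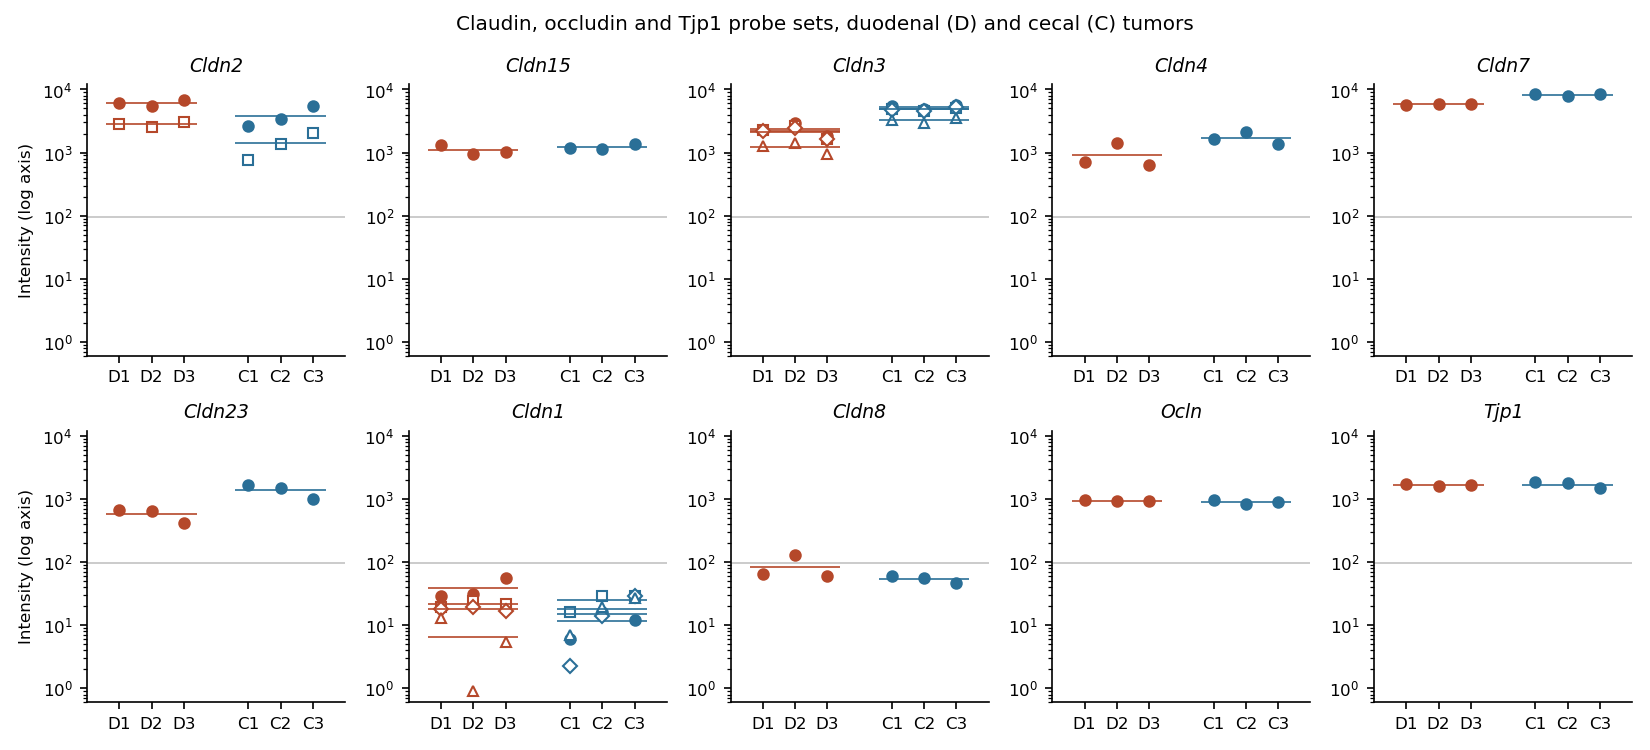
Intensity (log axis) of each member probe set on each array, duodenal tumors D1 to D3 left of cecal tumors C1 to C3, with 1 marker shape per probe set, filled for the brightest, and lines at the group means; the grey band is the range of the arrays' 40th percentiles. Cldn3, Cldn7 and Cldn23 lie lower in duodenal tumors, Ocln and Tjp1 overlap between the sites, and Cldn1 lies below the band on every array.

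Cldn2, the channel-forming claudin of leaky epithelia, was bright at both sites and uneven among the cecal tumors. The brighter probe set had intensities of 6130, 5450.9 and 6787.5 in duodenal tumors 1, 2 and 3, against 2605.1, 3436 and 5378.3 in cecal tumors 1, 2 and 3. All duodenal tumors thus lay above all cecal tumors, with cecal tumor 3 just below the lowest duodenal one. The means were 6122.8 ± 668.3 in duodenal and 3806.5 ± 1423.2 in cecal tumors (SD, n = 3 each). The log2 difference was 0.74 ± 0.24 (SE), with a 95% interval of 0.20 to 1.29, and did not pass (limma adjusted p = 0.0985). The other probe set read 2843.6, 2503.4 and 3067.9 in duodenal tumors, against 762.4, 1377 and 2082.2 in cecal tumors, which repeats the order of the tumors within each site. Its log2 difference was 1.10 ± 0.31 (SE; limma adjusted p = 0.069). These tests took the tumors as unpaired. In an alternative fit the replicate numbers of the titles were treated as pairing the tumors, a choice made from these same data. With that number as a block both probe sets passed (adjusted p = 0.0291 and 0.0277). Both also passed without cecal tumor 3, at 1.02 (adjusted p = 0.0111) and 1.43 (adjusted p = 0.0149).

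The other channel-forming claudin, Cldn15, did not pass. It had 1311.9, 967.5 and 1016.9 in duodenal tumors, against 1190.8, 1144.6 and 1392.6 in cecal tumors, and the groups overlapped. The log2 difference of -0.18 ± 0.15 (SE) had a 95% interval of -0.54 to 0.17 (limma adjusted p = 0.541), so a difference of up to 1.45-fold is within the interval.

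Cldn3, a barrier-forming claudin abundant in gut epithelium, had the smallest p among the members and was measured by 4 probe sets that share their target. Its brightest probe set had 2298.6, 2973.3 and 1845.1 in duodenal tumors, against 5460.3, 4886.1 and 5777 in cecal tumors. Every cecal tumor was above every duodenal tumor, and duodenal tumor 3 was the lowest of the 6. The means of 2372.3 ± 567.7 in duodenal and 5374.5 ± 451.6 in cecal tumors (SD, n = 3 each) gave a log2 difference of -1.20 ± 0.17 (SE; limma adjusted p = 0.00479), or 2.29-fold lower in duodenal tumors. The other 3 probe sets gave -1.19, -1.22 and -1.44 (adjusted p = 0.00425, 0.00317 and 0.00162), with no overlap in any of them. The suffix of 2 of the 4 marks probes that may also bind other transcripts, and a probe set without that mark had the largest difference of the 4, at 1270.7, 1421.3 and 938.2 in duodenal against 3296.9, 2982.9 and 3544.5 in cecal tumors. All 4 calls held under every alternative that was run.

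Cldn4, another barrier claudin and the neighbour of Cldn3 in the genome, leaned the same way with a wider spread. Its probe set had 719.7, 1395.7 and 626.7 in duodenal tumors, against 1637.1, 2109.9 and 1389 in cecal tumors. Duodenal tumor 2 reached the level of cecal tumor 3, so the groups overlapped, while the other duodenal tumors lay below all cecal ones. The log2 difference was -0.96 ± 0.29 (SE), with a 95% interval of -1.64 to -0.29, and did not pass (limma adjusted p = 0.084). It passed with the replicate number as a block (adjusted p = 0.00894) and without duodenal tumor 2 (-1.31, adjusted p = 0.0073).

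The bases just before the starts of Cldn2, Cldn3 and Cldn4 are shown because Cldn3 passed and Cldn2 had the opposite sign without passing, and because Cldn4 adjoins Cldn3, with no other protein-coding gene between them in the RefSeq annotation of GRCm38.p6. Each is the 250 bases before the annotated start, written 5′ to 3′ on the gene's strand. Capitals mark matches on either strand to 4 motifs, which were picked after the values were seen: CATAAA of Cdx factors, CAGGTG of E-box factors, TGATAA of Gata factors and AACNGGTT of Grainyhead-like factors.
Cldn2, chrX:139800558-139800807, plus strand: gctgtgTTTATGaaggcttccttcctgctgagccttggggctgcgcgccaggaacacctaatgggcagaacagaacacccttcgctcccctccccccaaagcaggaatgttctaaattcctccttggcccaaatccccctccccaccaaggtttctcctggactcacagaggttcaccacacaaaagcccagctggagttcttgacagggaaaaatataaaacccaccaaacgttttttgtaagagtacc
Cldn3, chr5:134985964-134986213, plus strand: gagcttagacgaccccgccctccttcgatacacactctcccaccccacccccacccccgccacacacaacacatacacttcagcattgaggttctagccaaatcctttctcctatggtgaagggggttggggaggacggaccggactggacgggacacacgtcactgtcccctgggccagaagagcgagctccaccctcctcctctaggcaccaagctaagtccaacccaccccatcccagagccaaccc
Cldn4, chr5:134946935-134947184, minus strand: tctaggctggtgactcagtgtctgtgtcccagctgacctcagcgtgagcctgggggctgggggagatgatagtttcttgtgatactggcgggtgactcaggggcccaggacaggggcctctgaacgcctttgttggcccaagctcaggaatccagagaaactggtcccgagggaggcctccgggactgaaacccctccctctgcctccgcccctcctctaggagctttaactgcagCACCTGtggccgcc
Cldn2 held the CATAAA match on its opposite strand, a motif found in 10.8% of the 32851 windows of this length in the RefSeq table. Cldn4 held 1 E-box, found in 17.2% of all windows, and Cldn3 held none of the 4 motifs. Of the 8 genes with a sequence in the table, E-boxes stood before Cldn4, Cldn7 and Ocln, TGATAA (7.94% of all windows) before Tjp1, and AACNGGTT (1.79%) before none. A match is a run of letters and not a known binding site.

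Cldn7, a claudin that also lies along the lateral membrane, where it binds the adhesion protein Epcam, varied the least within a site among the tested members. Its probe set had 5743.5, 5918.9 and 5876.5 in duodenal tumors, against 8415.8, 7937.7 and 8427.6 in cecal tumors. The groups were well apart, at 5846.3 ± 91.5 and 8260.4 ± 279.5 (SD, n = 3 each), and the log2 difference was -0.50 ± 0.09 (SE; limma adjusted p = 0.0103), or 1.41-fold lower in duodenal tumors. Epcam itself had 7656.6, 8071.3 and 8796.6 in duodenal tumors, against 10185.1, 9750.2 and 10005.3 in cecal tumors, without overlap, and did not pass (-0.29 ± 0.09, limma adjusted p = 0.092). Of 8 other markers of epithelial cells, 2, Vil1 and Cdh17, passed as lower in duodenal tumors, against 5.7% of all genes. The other 6 did not pass. Krt18 alone had a log2 difference above 0, at 0.14. Elf3, Cdh1, Krt19, Krt8 and Krt20 had -0.12, -0.13, -0.13, -0.21 and -0.78. The summed intensity of the 8, which a few bright markers dominate, was 50076 to 57117 in duodenal and 61230 to 65104 in cecal tumors. Their part in the Cldn7 difference was not tested. Centring the arrays on these 8 markers, added after the data were seen, shifted all probe sets by a median of 0.38. The markers' own log2 differences ran from -1.25 for Cdh17 to 0.14 for Krt18. Under this centring 6065 of all 13866 tested probe sets passed in either direction. It left Cldn7 at -0.11 (limma adjusted p = 0.342), while Cldn3 and Cldn23 still passed. The part of epithelial content in these 3 calls was not tested.

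Cldn23, a less studied claudin, was lower in duodenal tumors by about as much as Cldn3. Its probe set had 662.2, 643.2 and 411.9 in duodenal tumors, against 1678.7, 1508.7 and 1008.6 in cecal tumors. At both sites tumor 3 was the lowest, and the groups did not overlap. The log2 difference was -1.26 ± 0.24 (SE; limma adjusted p = 0.0152), or 2.40-fold lower in duodenal tumors. The call was lost without cecal tumor 1 (adjusted p = 0.0653) and without cecal tumor 2 (adjusted p = 0.064), at nearly the same size (-1.12 and -1.19). Paired by number, the 3 differences were -1.32, -1.21 and -1.26.

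Cldn1 and Cldn8, barrier claudins both, gave no usable signal. The 4 Cldn1 probe sets stayed at or below 55.5 on all 6 arrays, under the 40th percentile, and were not tested. The brightest had 29.4, 31.1 and 55.5 in duodenal tumors, against 6.1, 16.5 and 12.2 in cecal tumors, without overlap. The other Cldn1 probe sets overlapped. Cldn8, known from the colon and kidney, had 65.3, 128.4 and 61.4 in duodenal tumors, against 60.5, 56.4 and 46.1 in cecal tumors, so the groups did not overlap, but only duodenal tumor 2 lay above the percentile. At this brightness the values show only that neither gene was detectable by this measure in most or all of the tumors.

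Occludin and ZO-1 RNA did not pass, with narrow intervals around 0. Ocln had 964.2, 926.8 and 921.9 in duodenal tumors, against 952.3, 825 and 889.9 in cecal tumors, and the groups overlapped. The log2 difference of 0.08 ± 0.12 (SE; limma adjusted p = 0.753) had a 95% interval of -0.19 to 0.35, whose farther end is 1.27-fold. Tjp1 had 1724.1, 1620.8 and 1664 in duodenal tumors, against 1832.9, 1775.4 and 1497.2 in cecal tumors, and the groups overlapped. Its difference was -0.02 ± 0.12 (limma adjusted p = 0.938), with an interval of -0.30 to 0.26, whose farther end is 1.23-fold. Among all tested probe sets, 93.9% had a larger difference than Tjp1 and 79% a larger one than Ocln. The intervals hold for this scaling only. The centring on epithelial markers, with its median shift of 0.38, put Ocln at 0.46 and Tjp1 at 0.36, outside them.

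**Figure D2:**
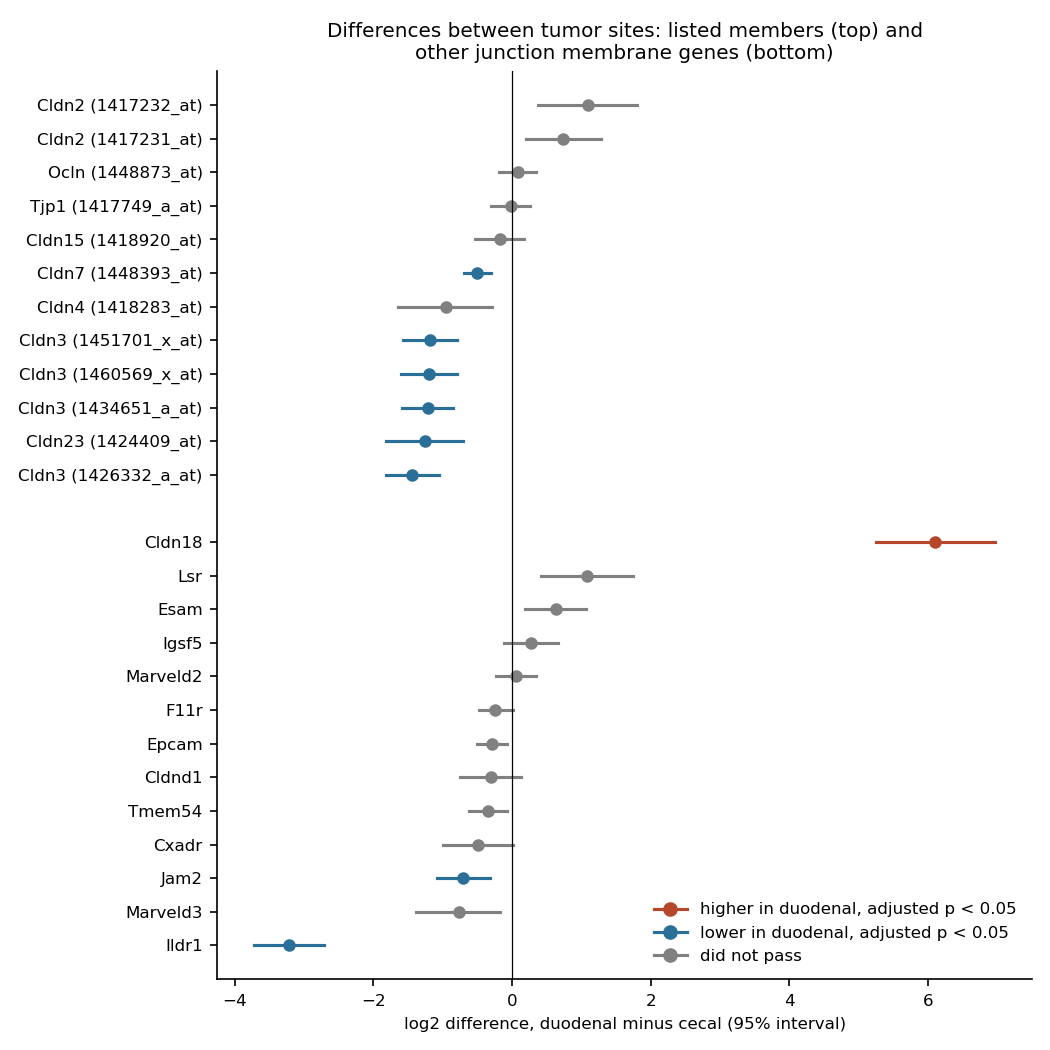
Log2 differences, duodenal minus cecal, with 95% intervals from limma, for the 12 tested member probe sets (top) and for the other tested claudin and the other membrane proteins of cell junctions (bottom, by the brightest probe set of each gene). Blue marks genes lower in duodenal tumors and red those higher at an adjusted p below 0.05; Cldn18 at 6.11 and Ildr1 at -3.22 lie far outside the span of the members.

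**Figure D3:**
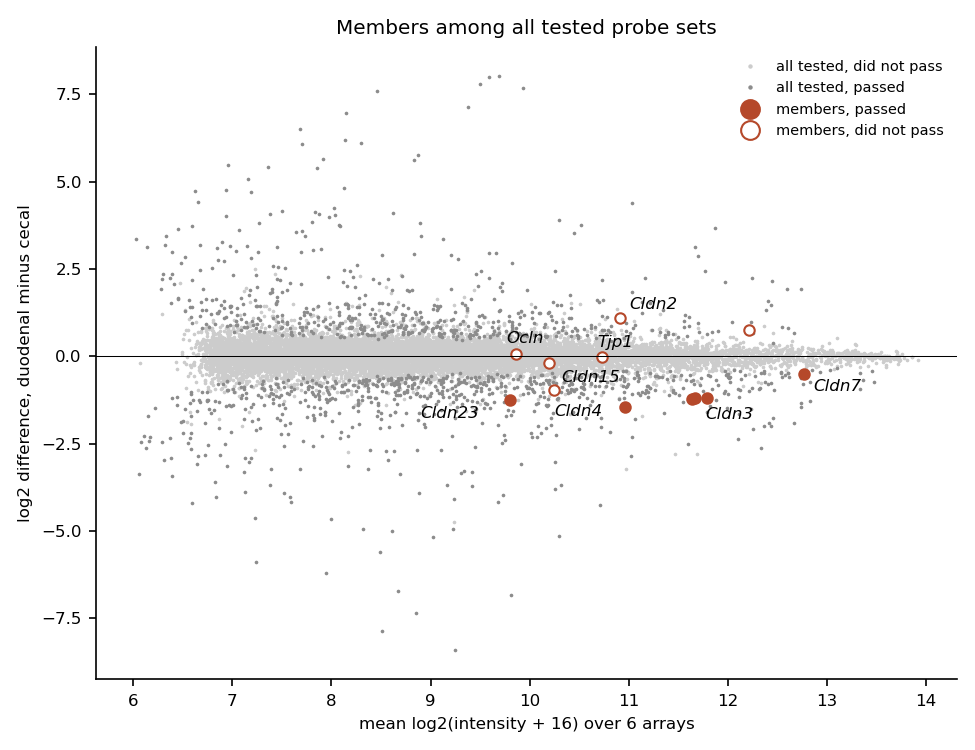
Mean log2(intensity + 16) over the 6 arrays (horizontal) against the log2 difference, duodenal minus cecal (vertical), for all 13866 tested probe sets in grey and the 12 tested member probe sets in red, filled where they passed. Cldn3, Cldn7 and Cldn23 lie below the zero line, Cldn7 the closest to it of the 3, and the open circles of Ocln and Tjp1 lie near that line. Of all tested probe sets, 18.2% had a difference of larger size than Cldn7, against 3.87% for Cldn23.

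Within a site the members did not follow a shared order. Among duodenal tumors, number 2 was the highest and number 3 the lowest for Cldn4 and all Cldn3 probe sets, whereas Cldn2 was highest in number 3 and lowest in number 2 by both of its probe sets. Among cecal tumors, number 3 was the highest for Cldn2 and Cldn3 and the lowest for Cldn4 and Cldn23. The spread, as highest over lowest tumor, was 2.06-fold and 2.73-fold for Cldn2 in cecal tumors and 2.23-fold for Cldn4 in duodenal tumors, against 1.06-fold or less for Cldn7 and 1.22-fold or less for Tjp1 and Ocln at either site. Beside this, the summed intensity of the stomach and pylorus markers was 77440, 66350 and 100221 in duodenal tumors 1, 2 and 3, and the part of stomach tissue in these orders was not tested.

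Of 10 other claudins on the array, 9 were dim on all 6 arrays and were not tested. The exception was Cldn18, which has a form made by stomach epithelium. Its brighter probe set had 3069.9, 1736.8 and 3298.9 in duodenal tumors, against 45.5, 22.9 and 6.8 in cecal tumors, where it was dim on every array. In duodenal tumors Cldn18 was higher by at least 27.1-fold, a bound taken against the percentile level (limma adjusted p = 8e-05), and its direction largely follows from the filter. Its other probe set also passed, at a log2 difference of 4.80 (adjusted p = 7.57e-05). The stomach and pylorus markers moved with it: all 11 tested members of that list passed as higher in duodenal tumors, against 4.73% of all genes. Of these, 9 were dim on every cecal array and were tested only through the duodenal tumors, so that their direction was fixed by the filter, and the exceptions were Ctse and Tff1. The sum over the list was 66350 to 100221 in duodenal and 1318 to 2193 in cecal tumors, with the acid pump subunit Atp4b dim on all 6 arrays. Their part in the claudin differences was not tested.

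Among the other membrane proteins of cell junctions, Ildr1 of the tricellular corners, where 3 cells meet, had the largest difference. Of 12 tested genes 2 passed, both lower in duodenal tumors and none higher, against 10.4% of all genes by their brightest probe set, and 7 had an unadjusted p below 0.05. For scale, a gene of this list with an unadjusted limma p of 0.0549 ranked 3367 by p among all 13866 tested probe sets. The list's median log2 difference was -0.30, beside 0.05 over all genes. Ildr1, known as angulin-2, a corner protein that recruits tricellulin, had 109.8, 103.2 and 69.2 in duodenal tumors, against 1198.4, 1073.7 and 758.2 in cecal tumors. With a log2 difference of -3.22 ± 0.22 (SE; limma adjusted p = 0.000155) it was lower in duodenal tumors, and it passed under every alternative that was run. The duodenal values lay in or near the dim range, with tumor 3 below the percentile, so the size depends on the offset (-3.41 at an offset of 1 and -2.87 at 50). Its relative Lsr, angulin-1, had 2522.2, 2503 and 2508.7 in duodenal tumors, against 711.3, 1265.6 and 1817.4 in cecal tumors. The groups did not overlap, the duodenal tumors were nearly identical, and the cecal tumors ranked as they did for Cldn2. Lsr did not pass (1.08 ± 0.29, limma adjusted p = 0.0562), but did with the replicate number as a block (adjusted p = 0.0277) and without cecal tumor 3 (1.39, adjusted p = 0.0135). Marveld2, tricellulin itself, averaged 480.8 ± 31.9 in duodenal and 460.5 ± 21.2 in cecal tumors (SD, n = 3 each; limma adjusted p = 0.83). Lsr and Marveld2 were named after their values were seen. The other member that passed was Jam2, an adhesion molecule, at 108.5 ± 11.5 in duodenal and 187.2 ± 19 in cecal tumors (-0.71 ± 0.17 SE, limma adjusted p = 0.037). It was close to the dim range in duodenal tumors, and its call was lost with no filter on dim probe sets (adjusted p = 0.0696) and without any 1 array other than duodenal tumor 2 (adjusted p = 0.0508 to 0.136). With the centring on epithelial markers it was -0.32 (adjusted p = 0.157).

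Scaffold and polarity proteins beneath the junction gave no call. None of 20 tested genes passed in limma, with 4 at an unadjusted p below 0.05 and a median log2 difference of -0.03. For scale, a gene of this list with an unadjusted limma p of 0.0508 ranked 3251 by p among all 13866 tested probe sets. With array weights 3 passed as lower, where 1939 of all 13866 tested probe sets passed in either direction. With the centring on epithelial markers 6 passed as higher, where 6065 of all 13866 passed in either direction. The smallest p belonged to Mpp5, which encodes the polarity protein Pals1, at 440.8, 497.8 and 432.7 in duodenal tumors, against 744.8, 613 and 581.3 in cecal tumors (-0.48 ± 0.14 SE, limma adjusted p = 0.0801). Of 12 actomyosin regulators linked to the junction 1 passed, close to the 10.4% of all genes. It was the non-muscle myosin heavy chain Myh14, at 1499, 1056.8 and 1350 in duodenal tumors, against 2217.8, 2494 and 2249.4 in cecal tumors. Its log2 difference was -0.84 ± 0.15 (SE; limma adjusted p = 0.0116), which missed the threshold when cecal tumor 2 was left out (adjusted p = 0.0547). The list's median was -0.17.

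Among transcription factors reported to act on claudin or occludin genes, Cdx1, Cdx2 and Hnf4a were lower and Gata4 was higher in duodenal tumors. These were 3 and 1 of 13 tested genes, against 5.7% and 4.73% of all genes, and the list's median log2 difference was -0.20. Cdx2, an intestinal homeobox factor, had 286.1, 253.5 and 218.7 in duodenal tumors, against 925.7, 695 and 836.8 in cecal tumors (-1.63 ± 0.16 SE, limma adjusted p = 0.000783). Cdx1, its relative, had 503.5, 671.2 and 397.6 in duodenal tumors, against 1195.5, 1653 and 1895 in cecal tumors (-1.57 ± 0.23 SE, limma adjusted p = 0.00496). Hnf4a, a nuclear receptor of gut and liver epithelium, averaged 3422.1 ± 246.3 in duodenal and 4846.2 ± 385.9 in cecal tumors (SD, n = 3 each; -0.50 ± 0.11 SE, limma adjusted p = 0.0266). That call was lost without any 1 of the 6 arrays (adjusted p = 0.0535 to 0.0974), without the intensity trend (0.0573) and with the centring on epithelial markers (-0.12, adjusted p = 0.404), although 3 further Hnf4a probe sets passed too, at -0.71, -0.73 and -0.85. The member that was higher was Gata4, a factor of the proximal gut, at 523.8, 242.8 and 513.1 in duodenal tumors, against 37.8, 61.7 and 63.7 in cecal tumors. It was dim in all cecal tumors and higher in duodenal tumors by at least 4.19-fold (limma adjusted p = 0.00193), a direction that largely follows from the filter. Snai1, Snai2, Twist1 and Zeb2, factors known for repressing junction genes, were too dim to be tested. Zeb1, of the same list, was tested and did not pass (-0.28 ± 0.25 SE, limma adjusted p = 0.569).

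**Figure D4:**
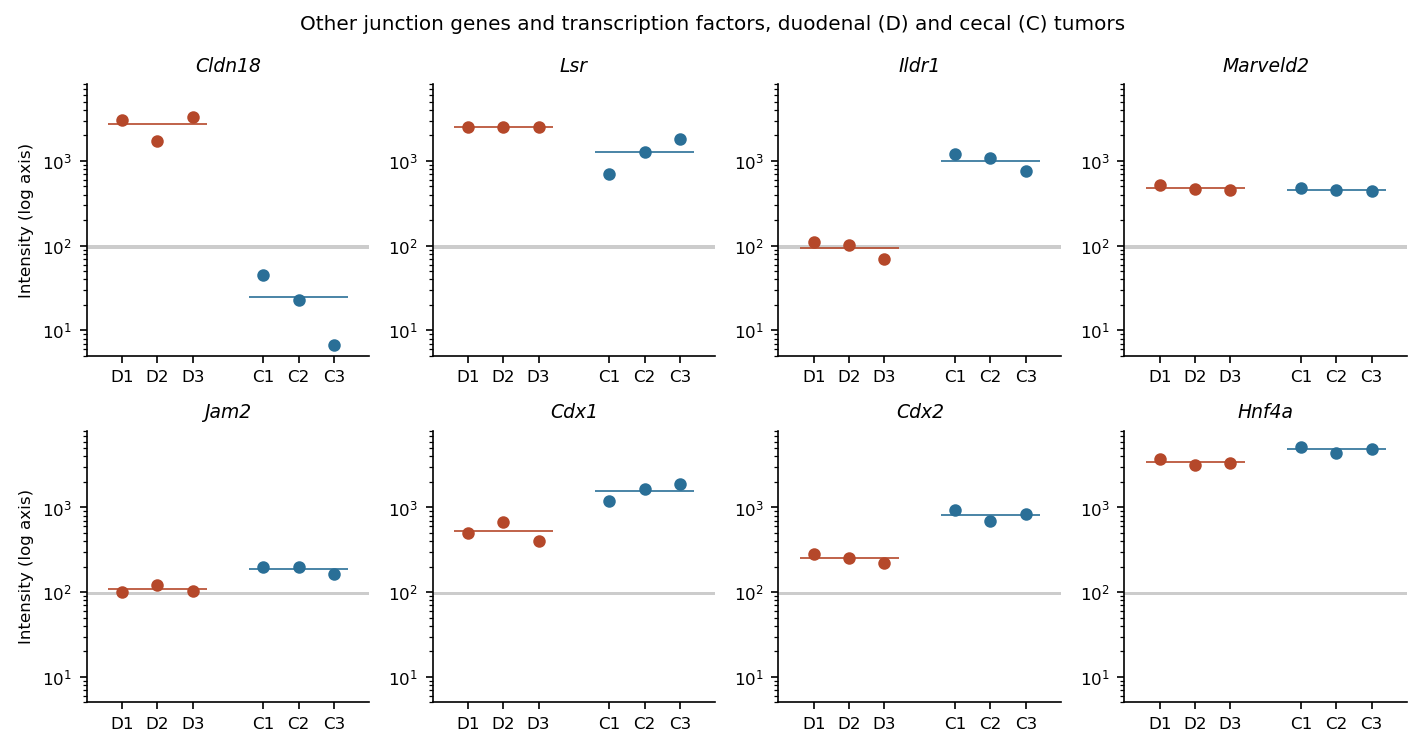
Intensity (log axis) on each array of Cldn18, the corner proteins Lsr, Ildr1 and Marveld2, the adhesion molecule Jam2 and the transcription factors Cdx1, Cdx2 and Hnf4a, duodenal tumors D1 to D3 left of cecal tumors C1 to C3, with lines at the group means; the grey band is the range of the arrays' 40th percentiles. Lsr and Cldn18 lie higher and Ildr1, Cdx1 and Cdx2 lower in duodenal tumors, and Marveld2 overlaps between the sites.

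Other cell types were measured beside these genes. Markers of the large intestine epithelium, led by Car1, Retnlb and Saa1, summed to 2188 to 5291 in duodenal and 37076 to 52489 in cecal tumors, with 10 of 11 tested members lower and 1 higher in duodenal tumors, against 5.7% and 4.73% of all genes. Of the 10, 6 were dim on every duodenal array, so that the filter fixed their direction. Markers of absorptive cells of the small intestine, led by Fabp2, Fabp1 and Slc5a1, summed to 2383 to 9339 in duodenal and 3356 to 7520 in cecal tumors. Of 5 tested, 2 were higher and 1 lower, against 4.73% and 5.7% of all genes, and Lct and Slc15a1 were dim on all 6 arrays. The 2 that were higher, Fabp1 and Mttp, were dim on every cecal array and could only be called higher. Fibroblast markers, led by Col3a1, Dcn and Col1a2, summed to 11462 to 14730 in duodenal and 16006 to 20331 in cecal tumors. Of 6 tested, 1, Col3a1, passed as lower in duodenal tumors, against 5.7% of all genes. No tested marker of endothelial cells (5), smooth muscle (5) or immune cells (6) passed in limma, with 1, 0 and 1 at an unadjusted p below 0.05. For scale, an immune marker with an unadjusted limma p of 0.0541 ranked 3350 by p among all 13866 tested probe sets. No exocrine pancreas marker was bright enough to be tested. The part of these cell types in the claudin differences was not tested.

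For the 3 members that passed, the genes with the closest profile were found among 8117 other tested genes by the root mean square difference of log2 profiles over the 6 arrays, each centred on its mean. Nearest to Cldn3 were Mpp6, Acot7 and Hoxa3, at 0.10, 0.11 and 0.13. Nearest to Cldn7 were Ing2, Akr1e1 and Prelid1, at 0.05, 0.05 and 0.06, and nearest to Cldn23 were Serhl, Klf6 and Dpyd, at 0.15, 0.16 and 0.17. As the 6 arrays form 2 groups, these profiles share above all the size of the difference between the sites.

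**Figure D5:**
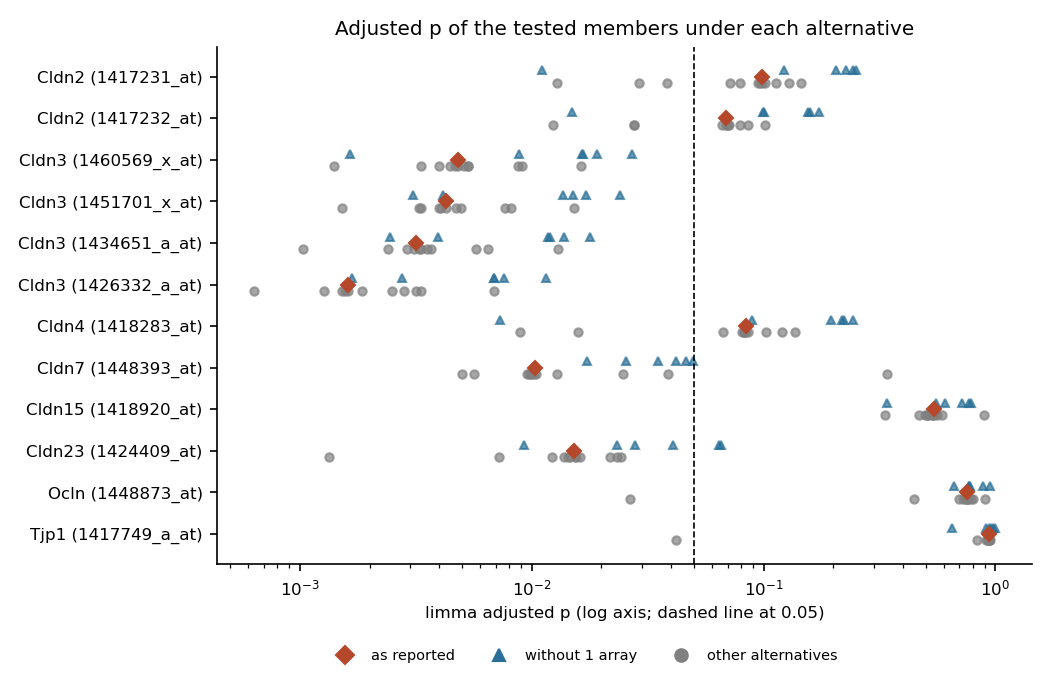
Adjusted p from limma (log axis) of each tested member probe set as reported (red diamond), with 1 array left out (blue triangles) and under the other alternatives (grey circles), with a dashed line at 0.05. The 4 Cldn3 probe sets stay left of the line throughout, Cldn2 and Cldn4 lie on either side of it, and Ocln and Tjp1 cross it under the centring on epithelial markers alone.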

How the data were processed

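RNA of 3 duodenal and 3 cecal tumors was measured on 1 array each, and groups and replicate numbers come from the titles. The deposited values are linear intensities that the authors computed with MAS5, as named in the submitters' processing notes. The MAS5 version, the scaling target and the detection calls were not given. The mean between the 2nd and 98th percentile was 499.1 to 499.9 on every array, and no further normalization was applied. Of 22690 probe sets, 20380 name 1 gene in the platform annotation, 691 several and 1555 none, and 64 are controls, which were left out. Only probe sets with 1 name were assigned to genes.

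Tests used limma 3.58.1 (R 4.3.3), with a variance trend on intensity in eBayes, on log2(intensity + 16) without covariates. The offset makes the change of dim genes look smaller than it is. Other genes were counted by the brightest of their probe sets, and where a whole group was dim the fold is a lower bound: the mean log2 intensity of the bright group over the percentile level of the dim one. Summaries used pandas 2.3.3 in Python 3.11.15, and figures matplotlib 3.10.9.

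The members, the gene lists and the alternatives were chosen with earlier results of these data known. Genes named are all members, up to 6 of each junction or transcription factor list that passed or else the one with the smallest p, the 3 brightest of each marker list and those dim throughout, and the 3 nearest profiles of members that passed. Promoter windows come from the RefSeq table for GRCm38.p6, which holds 8 of the 10 members.

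Tumors that share a number deviated together from their group means, with correlations of 0.274, 0.299 and 0.203, against -0.2 to -0.026 for tumors whose numbers differ. As each same-number value is above 0.1, an alternative fit took the numbers as pairing the tumors, by a block. The main tests used no block. Deviations within a group sum to 0, so positive values for the same number push those for different numbers below 0. The contrast between them is therefore no separate support for a pairing. No label ties a number to a litter or a batch, so the pairing comes from the data alone, and results with the block rest on it. On simulated data for this comparison, with 13866 probe sets of which 100 were changed 2-fold and 100 changed 4-fold, the procedure called 53% and 88% of them, 0 with the wrong sign, and 4.08% of the calls fell on unchanged ones. The simulation drew the arrays independently and changed a smaller share of probe sets than the 9.3% that passed in the data. Its rates need not carry over to the data. Precision is set by having 3 arrays per site.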

Additional observations from a re-analysis of the deposited data

How the results depend on the processing

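The tests were repeated with offsets of 1 and 50, no filter and a filter at the 50th percentile, quantile normalization, median centring, no intensity trend, array weights, the replicate number as a block, gene-level values, a threshold of 0.01 and each array left out, and, added after the data were seen, with the arrays centred on the epithelial markers. The number of members that passed as higher in duodenal tumors was 0, and became 2 with array weights, 2 with the replicate block and 4 with the epithelial centring, and 0 to 2 with 1 array left out (2 without cecal tumor 3). The members that passed as lower numbered 6, and 5 to 7 with 1 array left out. They numbered 3 with 1 probe set per gene or the mean of a gene's probe sets, which counts genes. At the threshold of 0.01 they numbered 4, all of Cldn3, because Cldn7 (limma adjusted p = 0.0103) and Cldn23 (0.0152) missed it. Over all tested probe sets 1290 passed, 1939 with array weights, 506 at the threshold of 0.01, 658 to 1194 with 1 array left out, and 6065 with the epithelial centring, which moves the median of all probe sets by 0.38. Under that centring Tjp1 turned to 0.36 (adjusted p = 0.042) and Ocln moved to 0.46 (adjusted p = 0.0266), values close to the shift itself. With array weights Cldn2 passed at 0.74 and 1.03 (adjusted p = 0.0385 and 0.0275) and Cldn4 at -1.19 (adjusted p = 0.0159). The block moved no other member across the threshold. The causes were not tested. Precision is limited by 3 arrays per site, and genes dim on most or all arrays, such as Cldn8 and Cldn1, cannot be compared.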

Other observations

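Profiles closest to those of the members that did not pass were also looked up, a choice made after the values were seen. Nearest to the brighter Cldn2 probe set were Cbx7, a Polycomb subunit, Bcat2, a branched-chain amino acid transaminase, and Pim3, a kinase, at root mean square log2 differences of 0.07, 0.08 and 0.09. Like Cldn2, none of these passed: their log2 differences were 0.72, 0.88 and 0.74 (limma adjusted p = 0.188, 0.0648 and 0.0593). Nearest to Cldn4 were Eno3, Steap4 and Mpp3, at 0.19, 0.20 and 0.20, and of these Mpp3, at a log2 difference of -1.04, passed (limma adjusted p = 0.0497).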
